A study of Homo sapiens with 6 samples.

Results

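The proteasome is described here through the genes that encode its subunits, activators, inhibitor and assembly chaperones. Members were all genes whose symbol is PSM, a letter from A to G and a number, on probe sets annotated to that gene alone, a rule on symbols that uses no measured value. This gave 39 genes on 62 probe sets, out of 11963 genes with such a probe set on the array. These PSM genes are unrelated to PSMA, the prostate-specific membrane antigen made from FOLH1, which gives one group of arrays its label. PSMA6 and PSME2 lie on probe sets annotated to several genes and are given as such, as are the shared probe sets of PSMA2. PSMA8, PSMB11, PSMC5, PSMD7, PSMD13, PSMG3 and PSMG4 were not analysed here.

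The proteasome is the barrel-shaped protease that degrades proteins tagged with ubiquitin. Its core particle stacks alpha rings, which gate the entry, around beta rings, in which only PSMB5, PSMB6 and PSMB7 cut peptide bonds. Regulatory caps, built from ATPases (PSMC genes) and non-ATPase subunits (PSMD genes), bind ubiquitin chains, unfold the substrate and thread it into the core. Interferons induce PSMB8, PSMB9 and PSMB10, which replace the constitutive catalytic subunits in newly assembled cores to form the immunoproteasome, a main source of peptides for HLA class I molecules. The activator formed by PSME1 and PSME2 is induced with them.

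RNA came from PC3 cells, a line that was derived from a bone metastasis of human prostate cancer and grown in RPMI medium, and was hybridised to Affymetrix arrays, 3 labelled control and 3 labelled PSMA (called control-labelled and PSMA-labelled here). Per the labels, cells received the pLNCX-PSMA plasmid or the vector alone with a lipid reagent, recovered for 72 h and were selected with puromycin. The control arrays are titled wild type while their source names the vector, and the labels do not say whether a line was a clone or a pool, nor whether replicates were separate cultures. P-values are thus set by the spread among these arrays alone, and that spread may be technical. All 8 markers of PC3 and epithelial cancer cells, such as KRT18 and EPCAM, were above the filter on low signal, with a sum of 22709 to 23328 on control-labelled and 19534 to 20208 on PSMA-labelled arrays. Signal went against the labels at the targeted gene. FOLH1 read 61.5, 59.7 and 60.4 on control-labelled arrays against 24.4, 32.0 and 28.0 on PSMA-labelled arrays (limma adjusted p = 9.6e-06), and the brightest probe set shared by FOLH1 and its paralog FOLH1B read 417 to 548 against 8.58 to 15.1. Both probe sets passed the filter on low signal only through the control-labelled arrays, so they had to differ. With no filter, the FOLH1 difference gave limma adjusted p = 0.00012. Every direction below follows the labels as deposited, so "higher" means higher on the PSMA-labelled arrays, where FOLH1 signal was lower. Values are processed intensities in arbitrary units.

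Most proteasome genes differed little in size, and those that passed the test went both ways. Of the 39 genes, each read on its brightest probe set, 10 rose, 9 fell and 20 did not pass limma's test (Benjamini-Hochberg adjusted p under 0.05 over 7035 tested genes). The background for these counts is wide, since 63.6% of all tested genes passed, 30.1% higher and 33.5% lower, against 48.7% of the proteasome genes. The median size of the log2 difference was 0.12 among proteasome genes and 0.22 among all tested genes, and the median signed difference was -0.035 and -0.014. Only PSMB9, PSMC3 and PSMC6 passed and differed by 1.5-fold or more, against 13.8% of all genes, and PSMB9 alone reached 2-fold, against 4.41%. Control and PSMA labels were fully separated in 31 of the 39 genes (79.5%, groups not overlapping), against 69.5% of all genes. PSMB9 is among the genes counted as higher, as 1.5-fold or more and as separated. It passed the filter on low signal only through the PSMA-labelled arrays, so it had to differ. A filter asking for all 6 arrays dropped PSMB9, and limma then called 18 of 38 members (47.4%), against 63.5% of all genes. Averaging the probe sets of each gene instead gave 13 higher and 8 lower (53.8% called, against 64.4% of all genes). The comparison with all genes depends on the filter. With no filter, limma called 17 members (43.6%), against 38.6% of all 11963 genes. The count also depends on the variance model. When the variance was allowed to follow intensity and was estimated robustly, limma called 28 members (71.8%), 14 in each direction, and 65.3% of all genes. Tested against a minimum fold of 1.2, it called 7 members, PSMB9 among them, 6 higher and 1 lower, against 23.9% of all genes.

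**Figure D1:**
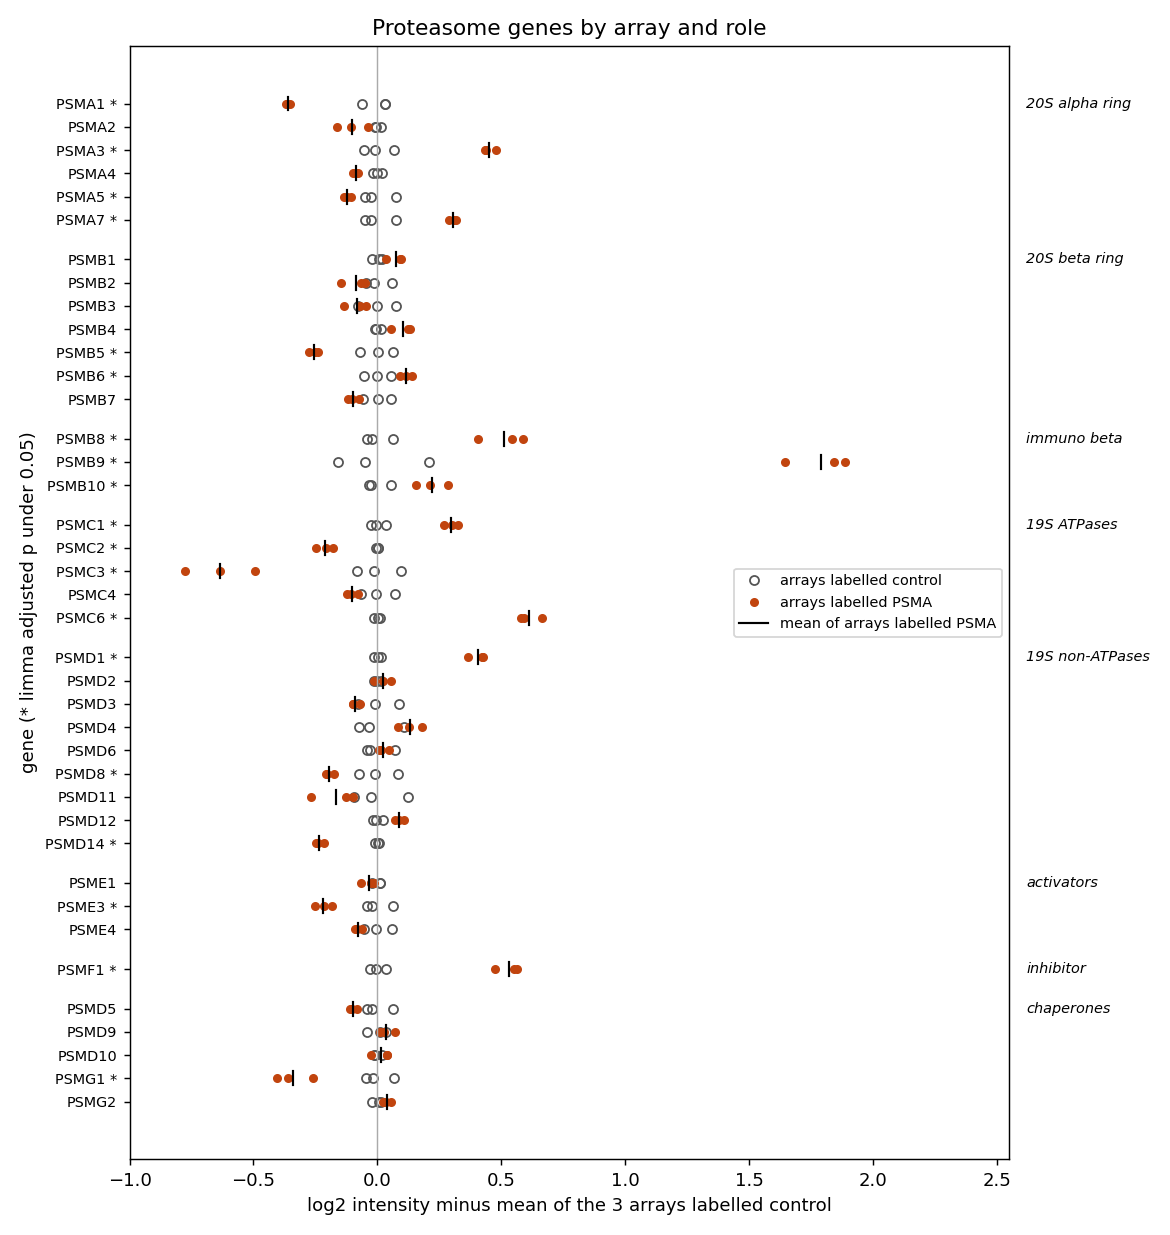
Each row is a proteasome gene, with 1 point per array showing its log2 intensity minus the mean of the 3 control-labelled arrays (open, control; filled, PSMA; bar, mean of the PSMA arrays), grouped by role, and stars mark limma adjusted p under 0.05. Most filled points lie within 0.5 log2 units of the controls, and PSMB9 stands 1.79 above them.

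The immunoproteasome subunits were all higher on PSMA-labelled arrays. PSMB9 (also called LMP2), which takes the place of PSMB6, read 21.9, 28.2 and 23.5 on control-labelled arrays and 87.4, 90.2 and 76.3 on PSMA-labelled arrays. The lowest PSMA value was well above the highest control value, and the rise was 3.46-fold (log2 difference 1.79, SE 0.0988, limma adjusted p = 1.4e-06). PSMB9 was below the filter (52.5, the median of all values) on every control array and passed it only through the PSMA arrays, so a gene kept in this way had to differ. Its control signal was also dim, and the size of the rise depended on how dim values are treated: the log2 difference was 1.31 with 16 added to each value.

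PSMB8 (LMP7), which replaces PSMB5, read 207, 204 and 219 on control-labelled arrays and 316, 278 and 306 on PSMA-labelled arrays. It rose 1.43-fold without overlap of the groups (log2 difference 0.51, SE 0.0582, limma adjusted p = 8.5e-05). PSMB10 (MECL-1), which replaces PSMB7, changed least of the 3, from 194 ± 6.59 to 226 ± 9.92 (SD, n = 3). Its rise of 0.22 on the log2 scale (SE 0.0497, limma adjusted p = 0.0046) did not pass against a minimum fold of 1.2. The rises thus ran from 1.16-fold to 3.46-fold within this trio.

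Leucocytes carry much immunoproteasome, and their markers were read beside these subunits. None of the 6 measured leucocyte markers was above the filter, with PTPRC at 7.38 ± 1.06 and 6.93 ± 0.384 (SD, n = 3) and LYZ at 5.31 ± 0.619 and 5.12 ± 0.152. Their summed signal ran from 71.0 to 74.0 on control-labelled arrays and from 77.4 to 82.6 on PSMA-labelled arrays, with ITGAM at 21.1 and 28.5. In a bulk sample, more cells of one kind and more RNA per cell cannot be told apart.

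The subunits that the immunoproteasome replaces did not share one direction. PSMB5, which carries the chymotrypsin-like activity, read 2216, 2107 and 2309 on control-labelled arrays and 1824, 1870 and 1856 on PSMA-labelled arrays, a fall of 0.26 on the log2 scale (SE 0.0470, limma adjusted p = 0.0014). PSMB6, with the caspase-like activity, went from 2404 ± 90.7 to 2606 ± 44.2 (SD, n = 3), a rise of 0.12 (SE 0.0450) at limma adjusted p = 0.049 that was lost on leaving out any of 5 arrays in turn. PSMB7, with the trypsin-like activity, had a log2 difference of -0.098 (95% interval -0.20 to 0.0050, limma adjusted p = 0.087). Within each array the exchange partners were then subtracted on the log2 scale. PSMB9 minus PSMB6 was 1.68 higher on PSMA-labelled arrays, PSMB8 minus PSMB5 was 0.77 higher, and PSMB10 minus PSMB7 was 0.32 higher. Since PSMB9 passed the filter only through the PSMA arrays, its pair had to separate and is given with no test, and its difference was 1.197 with 16 added to each value. Groups did not overlap in the other pairs, but this too followed from the single genes. PSMB8 and PSMB10 were fully separated upward, and PSMB5 and PSMB7 fully separated downward, so their within-array differences had to separate. Each of these pairs gave p = 0.10 in a two-sided exact permutation test over arrays. This is the smallest p that 3 arrays against 3 can give, and it adds no support here.

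**Figure D2:**
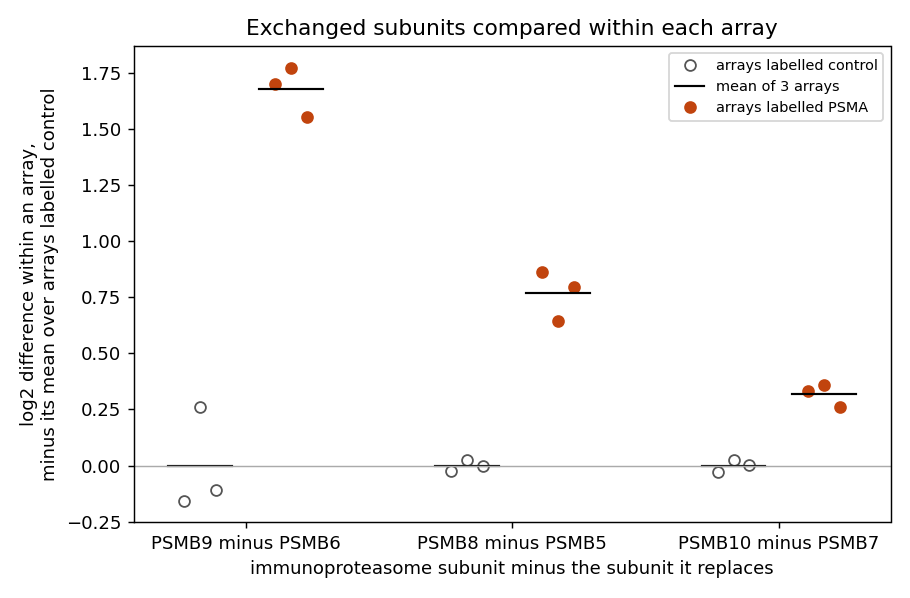
For each pair of exchanged subunits, points give the log2 difference between the 2 genes within an array, minus its mean over the control-labelled arrays (open, control; filled, PSMA; bars, means of 3 arrays). The filled points lie above the open ones in all 3 pairs, by 1.68, 0.77 and 0.32 on average.

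The promoters of the immunoproteasome genes are shown because these subunits are known to be induced together, together with that of TAP1, the peptide transporter gene that is read divergently from PSMB9. Each line gives the 250 bases before the transcription start in RefSeq (GRCh38.p14), 5′ to 3′ on the gene's strand, with motif matches in capitals.
PSMB9, chr6:32853942-32854191, plus strand: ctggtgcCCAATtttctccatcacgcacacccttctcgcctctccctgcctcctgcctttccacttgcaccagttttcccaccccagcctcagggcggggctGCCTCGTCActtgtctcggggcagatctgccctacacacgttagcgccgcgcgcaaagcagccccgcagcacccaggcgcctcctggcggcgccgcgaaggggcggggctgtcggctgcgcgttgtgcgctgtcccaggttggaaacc
TAP1, chr6:32853705-32853954, minus strand: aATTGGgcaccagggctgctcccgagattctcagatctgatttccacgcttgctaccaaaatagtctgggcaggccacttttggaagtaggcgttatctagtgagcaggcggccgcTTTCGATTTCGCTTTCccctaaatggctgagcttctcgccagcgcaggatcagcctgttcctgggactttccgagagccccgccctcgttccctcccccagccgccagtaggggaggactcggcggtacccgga
PSMB8, chr6:32844680-32844929, minus strand: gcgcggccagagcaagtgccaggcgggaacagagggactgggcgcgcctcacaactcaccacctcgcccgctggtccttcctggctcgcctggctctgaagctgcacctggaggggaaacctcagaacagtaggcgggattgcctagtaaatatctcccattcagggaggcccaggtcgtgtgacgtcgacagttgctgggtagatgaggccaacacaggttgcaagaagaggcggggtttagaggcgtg
PSMB10, chr16:67936851-67937100, minus strand: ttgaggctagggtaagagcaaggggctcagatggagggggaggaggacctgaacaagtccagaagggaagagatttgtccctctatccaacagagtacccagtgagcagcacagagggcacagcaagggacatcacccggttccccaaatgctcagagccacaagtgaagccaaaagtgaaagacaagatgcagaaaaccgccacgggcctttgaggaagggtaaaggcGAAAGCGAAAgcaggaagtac
Motifs were searched on both strands as TGACNNNGC (the core of the antioxidant response element, bound by NFE2L1 and NFE2L2), the core of the interferon-stimulated response element (ISRE, read as GAAA, any 2 bases, GAAA) and CCAAT (bound by NFY). The PSMB9 window held an antioxidant response element core starting 148 bases before the start and a CCAAT box. It overlapped the TAP1 window by 13 bases, and the TAP1 window held 2 overlapping ISRE cores starting 134 and 128 bases before the TAP1 start. The PSMB10 window held an ISRE core starting 21 bases before the start, and these letters were not found in the PSMB8 window. Promoters of 34 of the 39 members were in the table. Among them the antioxidant response element core was in 10 (29.4%, against 11.0% of 27305 promoters), the ISRE core in 3 (8.82%, against 3.07%) and CCAAT in 15 (44.1%, against 33.0%). Member promoters also held more G and C, with a median of 61.6% against 58.0%. A match describes the letters only.

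In the alpha ring, 2 of 6 genes rose and 2 fell. PSMA3 read 4755, 4902 and 5173 on control-labelled arrays and 6694, 6878 and 6675 on PSMA-labelled arrays, the largest rise in the ring (1.37-fold, log2 difference 0.45, SE 0.0464, limma adjusted p = 4.9e-05). PSMA7 rose 1.24-fold, and both of its probe sets gave nearly the same log2 difference (0.31 and 0.30). PSMA1 went the other way, from 4175 ± 151 to 3249 ± 17.9 (SD, n = 3), a fall of 0.36 on the log2 scale (SE 0.0438, limma adjusted p = 0.00013) that its other 2 probe sets shared (-0.31 on each). PSMA5 fell by 0.12 (limma adjusted p = 0.049), a call lost on leaving out any of 5 arrays in turn, while PSMA2 (-0.10) and PSMA4 (-0.088) did not pass. The 2 probe sets annotated to PSMA6 and PRORP, which cannot separate the genes, were 0.44 and 0.24 higher (limma adjusted p = 7.8e-05 and 0.0020 over probe sets). Likewise shared, the 2 probe sets annotated to PSMA2 and C7orf25 were called lower, at -0.34 and -0.27 (limma adjusted p = 0.00039 and 0.0022 over probe sets).

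In the constitutive beta ring, PSMB5 and PSMB6 were the only genes of 7 to pass, and log2 differences ran from -0.26 to 0.12 with a median of -0.084, which ranged from -0.11 to -0.045 on leaving out 1 array, the value nearest 0 being that without control replicate 3. The structural subunits PSMB1 (0.074), PSMB2 (-0.088), PSMB3 (-0.084) and PSMB4 (0.10) differed by at most 1.07-fold and did not pass. PSMB4 read 5140, 5229 and 5149 on control-labelled arrays and 5662, 5637 and 5378 on PSMA-labelled arrays, so its groups did not overlap although it missed the threshold (limma adjusted p = 0.058). With its 2 probe sets averaged, PSMB4 passed (0.11 higher, limma adjusted p = 0.039).

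The ATPases of the cap held both the largest rise and the largest fall among constitutive core and cap genes. PSMC6 read 3165, 3179 and 3130 on control-labelled arrays and 4764, 4721 and 5012 on PSMA-labelled arrays, a 1.53-fold rise (log2 difference 0.61, SE 0.0427, limma adjusted p = 5.1e-06). PSMC3 read 728, 695 and 786 against 429, 473 and 522, a 1.55-fold fall (log2 difference -0.64, SE 0.0774, limma adjusted p = 0.00013). These ATPases sit in the same hetero-hexameric ring, and their groups were well apart. PSMC1 rose 1.23-fold, from 1496 ± 32.0 to 1839 ± 35.0 (SD, n = 3), and PSMC4, at -0.10 on the log2 scale, did not pass. PSMC2 gave no single direction. Its brighter probe set fell by 0.21, from 3975 ± 14.3 to 3434 ± 78.3 (SD, n = 3), whereas its dimmer one rose by 0.30, from 139 to 141 up to 167 to 175. With probe sets averaged, PSMC2 had a log2 difference of 0.042 and did not pass (limma adjusted p = 0.38). The median of the ATPases was -0.10 by brightest probe set and 0.042 by averaged probe sets.

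Of 9 non-ATPase cap genes, 1 rose, 2 fell and 6 did not pass. PSMD1, a large scaffold subunit of the cap base, read 1368, 1385 and 1396 on control-labelled arrays and 1855, 1858 and 1784 on PSMA-labelled arrays. It rose 1.32-fold (log2 difference 0.41, SE 0.0409, limma adjusted p = 4.3e-05), and its second probe set rose by 0.47. PSMD14, the deubiquitinase of the lid that removes ubiquitin chains from substrates, fell from 3608 ± 23.3 to 3068 ± 37.6 (SD, n = 3), by 0.23 on the log2 scale (SE 0.0391, limma adjusted p = 0.00084). PSMD8 fell by 0.19 (limma adjusted p = 0.0089). The ubiquitin receptor PSMD4 (0.13), the scaffold PSMD2 (0.022), PSMD3 (-0.088), PSMD6 (0.022), PSMD11 (-0.17) and PSMD12 (0.089) did not pass. The dimmer probe set of PSMD11 rose 1.59-fold, from 40.5 to 41.7 up to 61.7 to 69.0, but it passed the filter only through the PSMA arrays and so had to differ. With both averaged, PSMD11 had a log2 difference of 0.25 (SE 0.0458) and was called higher (limma adjusted p = 0.0012). That averaged rise rests on the dimmer probe set, since the brighter one was lower (-0.17), and it is no further support.

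Among the activators, which bind core ends in place of the cap, no gene rose by its brightest probe set. PSME1, a partner in the interferon-inducible activator, read 1234, 1207 and 1234 on control-labelled arrays and 1203, 1214 and 1169 on PSMA-labelled arrays. These groups overlapped (log2 difference -0.035, 95% interval -0.13 to 0.057, limma adjusted p = 0.47). The probe set annotated to PSME2 and MIR7703 read 1983, 1942 and 2043 against 1848, 1876 and 1903, differing by -0.084 on the log2 scale (SE 0.0430) without passing (limma adjusted p = 0.12 over probe sets). The activator pair was thus not higher where PSMB8, PSMB9 and PSMB10 were. PSME3, the nuclear activator, fell by 0.22 (SE 0.0460, limma adjusted p = 0.0031), and its other 3 probe sets were also lower (-0.32, -0.13 and -0.18), of which the -0.13 did not pass. PSME4, another activator of the nucleus, had a log2 difference of -0.078 on its brightest probe set (limma adjusted p = 0.16), while its 2 dimmer ones rose by 0.30 and 0.25 (limma adjusted p = 0.020 and 0.0044 over probe sets). With the 3 averaged, PSME4 was called higher, by 0.16 (SE 0.0516, limma adjusted p = 0.024), so its direction depends on the probe set.

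The inhibitor gene PSMF1, whose product (PI31) blocks the core in vitro, was among the larger changes. It read 466, 457 and 479 on control-labelled arrays and 685, 689 and 650 on PSMA-labelled arrays. The rise was 1.44-fold (log2 difference 0.53, SE 0.0447, limma adjusted p = 1.5e-05), and its second probe set rose by 0.24. Of the 5 chaperones with a PSM symbol, only PSMG1, which helps build the alpha ring, passed. PSMG1 fell from 2108 ± 86.3 to 1664 ± 87.9 (SD, n = 3), by 0.34 on the log2 scale (SE 0.0540, limma adjusted p = 0.00061). Its partner PSMG2 (0.038) and the cap chaperones PSMD5 (-0.098), PSMD9 (0.037) and PSMD10 (0.016) did not pass on their brightest probe sets.

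By probe set, 59 of the 62 passed the filter and 29 of those were called, against 60.6% of all probe sets tested. The 3 left out, of PSMB1, PSMD4 and PSMD5, read 5.33 to 26.2 on every array. Of 15 members with at least 2 tested probe sets, 4 were called the same way on all of them (PSMA1, PSMA7, PSMD1 and PSMF1), 6 were called on none, 4 were called on some, and PSMC2 was called in opposite directions. Opposite calls occurred in 2.8% of all genes with at least 2 tested probe sets. PSMA1, PSMA7, PSMD4 and PSME3 were read on probe sets of a type whose probes can match other transcripts too.

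Proteasome genes were set beside their chromosomal neighbours. For each member, the 5 nearest tested genes on each side were taken in RefSeq order and their median log2 difference computed. Of the 19 called members, 13 had neighbours with a median of the same sign (68.4%), which is near the 71.6% of all called genes and thus not particular to the proteasome. PSMD1 on chromosome 2 rose by 0.41, and all 10 of its neighbours rose (median 0.45). PSMC6 and PSMA3 on chromosome 14 rose by 0.61 and 0.45, each with 9 of 10 neighbours higher (medians 0.35 and 0.43). PSMC3 on chromosome 11 fell with 9 of 10 neighbours lower (median -0.37), and PSMA1, on the same chromosome, fell by as much as its neighbours (-0.36 and -0.39). PSMA7 and PSMF1 on chromosome 20 and PSMB10 on chromosome 16 each rose with 7 of 10 neighbours.

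The 6 called members whose neighbours had a median of the other sign were PSMB5, PSMB6, PSMB8, PSMB9, PSMC2 and PSMD8. The 10 neighbours of PSMB9 on chromosome 6, which include PSMB8 and TAP1, had a median of -0.083, with 3 higher and 4 lower, and those of PSMB8 had a median of -0.13, with 2 higher and 4 lower. PSME1 stood at -0.035 among neighbours on chromosome 14 with a median of -0.36, of which 8 fell. Over the 39 members, the gene and its neighbours correlated at r = 0.42 (Spearman's rho 0.60), compared with r = 0.48 (rho 0.44) over all 7034 placed genes. Over the 27 constitutive core and cap genes, a set taken by role, the value was r = 0.82 (rho 0.67). Without PSMB8 and PSMB9 it was r = 0.76 (rho 0.69) over 37 members. Both genes lie far from their neighbours, at 0.51 and 1.79 against medians of -0.13 and -0.083, so leaving them out had to raise r. That value is no support and cannot be set against all placed genes, from which none was dropped in this way. These correlations are across genes, which share arrays and in part neighbours, and are given as a description. The part of chromosome segments in the members' differences was not tested.

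**Figure D3:**
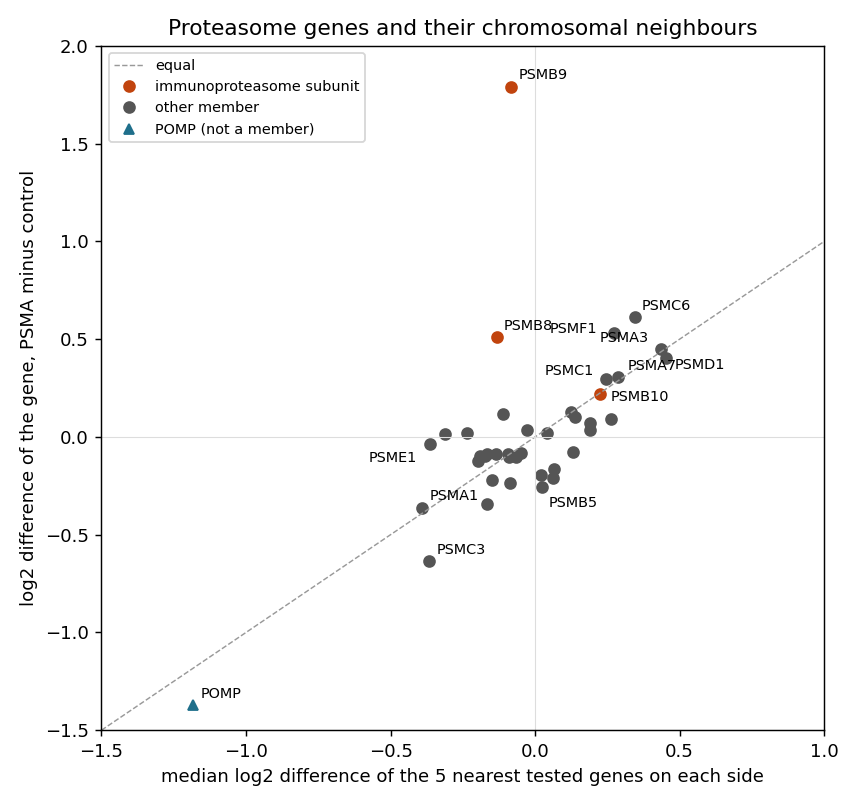
Each point is a proteasome gene, with the median log2 difference of its 10 nearest tested genes (fewer at a chromosome end) on the x axis and its own log2 difference, PSMA minus control label, on the y axis; POMP is added as a triangle, and the dashed line marks equality. PSMB9 and PSMB8 lie above the line at 1.79 and 0.51, while PSMD1, PSMA3, PSMB10 and PSMA1 lie near it.

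Among 11 tested assembly factors and cap partners without a PSM symbol, 4 rose, 5 fell and 2 did not pass (81.8% called, against 63.6% of all tested genes). POMP, the maturation protein that joins beta subunits to the forming core and is consumed when the core closes, read 7141, 7181 and 7136 on control-labelled arrays and 2710.2, 2745 and 2848 on PSMA-labelled arrays. It fell 2.58-fold with wide separation of the groups (log2 difference -1.37, SE 0.0410, limma adjusted p = 4.6e-08). POMP lies on chromosome 13, where 9 of its 10 neighbours fell (median -1.18). IPO9, an importin that carries proteasomes into the nucleus, rose 2.02-fold, from 205 ± 1.80 to 415 ± 33.1 (SD, n = 3). The cap deubiquitinase gene UCHL5 rose 1.49-fold and the ubiquitin ligase gene UBE3C fell 1.55-fold. IPO9 and UCHL5, both on chromosome 1, each had 8 of 10 neighbours higher.

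Among 11 tested genes that control proteasome transcription, 2 rose, 7 fell and 2 did not pass. NFE2L1, the factor that raises proteasome genes when activity is short, fell by 0.21, from 607 ± 1.90 to 524 ± 17.1 (SD, n = 3), while NGLY1, the deglycosylase that activates it, rose by 0.40. The NFY subunit NFYB rose by 0.81, and MAFG (-0.50), a small MAF partner, and FOXM1 (-0.48) fell. Of 10 neighbours each, 9 of FOXM1 (median -0.58) and 6 of MAFG (median -0.20) were called lower. Neighbour medians were 0.12 for NFE2L1, 0.065 for NGLY1 and 0.061 for NFYB. Of 9 tested genes for ubiquitin, its conjugation and its shuttle factors, 1 rose (CUL3, a ubiquitin ligase scaffold, by 0.49) and 5 fell, among them the ubiquitin gene UBB by 0.55 and the E1 gene UBA1 by 0.33. UBB lies on chromosome 17 where all 10 neighbours fell (median -1.82). All 10 neighbours of UBA1 on chromosome X fell as well (median -0.37), and 6 of 10 neighbours of CUL3 rose (median 0.19). The called counts of both lists stand beside the 30.1% of all tested genes that rose and the 33.5% that fell.

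Of 17 peptide trimming and loading genes, which act after the proteasome, 5 rose, 2 fell and 10 did not pass (41.2% called, against 63.6% of all tested genes). TPP2, a cytosolic peptidase that trims proteasome products, read 202, 204 and 205 on control-labelled arrays and 399, 380.4 and 399 on PSMA-labelled arrays, a 1.93-fold rise within a stretch of chromosome 13 in which all 10 neighbours rose (median 0.84). TAP1 rose 1.45-fold, from 121 ± 1.60 to 175 ± 4.86 (SD, n = 3). TAP2, beside it, was 0.087 higher on the log2 scale and did not pass (limma adjusted p = 0.15), and CALR (-0.35) and HLA-C (-0.14) fell, the latter call lost without any of 4 arrays.

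In the interferon signal, 1 of 9 tested genes rose and 4 fell (55.6% called, against 63.6% of all tested genes). IRF9, which carries the type I interferon signal to DNA and lies near PSME1, fell 3.79-fold, from 213 ± 15.4 to 56.0 ± 1.84 (SD, n = 3), on the arrays where PSMB9 was higher. Of the 10 neighbours of IRF9, 7 were called lower (median -0.36, against -1.92 for IRF9). IFNAR2 rose by 0.46, and JAK2 (-0.43), JAK1 (-0.17) and IFNGR2 (-0.28) fell. Neighbour medians were -0.042 for IFNAR2, -0.20 for JAK2, -0.23 for JAK1 and 0.0044 for IFNGR2. IRF1, a known activator of the PSMB9 and TAP1 promoter, read 39.3, 48.8 and 53.4 on control-labelled arrays and 61.4, 51.6 and 55.9 on PSMA-labelled arrays, overlapping groups near the filter (log2 difference 0.26, limma adjusted p = 0.065).

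**Figure D4:**
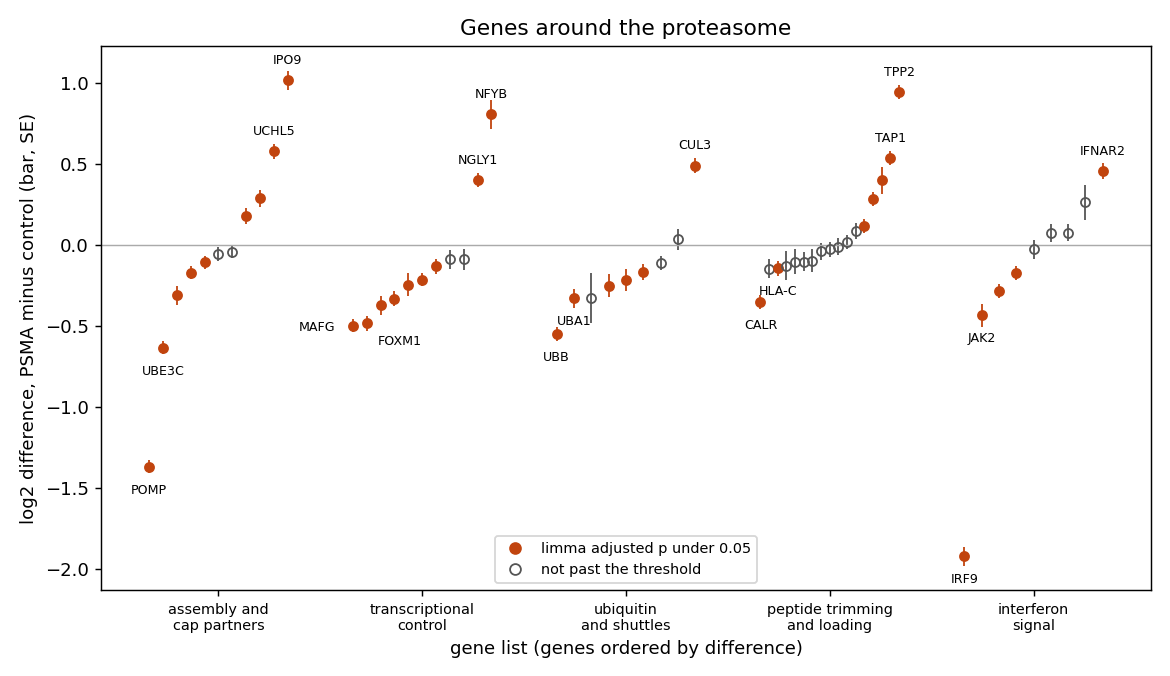
Points are the log2 differences, PSMA minus control label, of tested genes in 5 lists of genes that act around the proteasome, with the standard error as a bar (filled, limma adjusted p under 0.05). POMP at -1.37 and IRF9 at -1.92 are the lowest points, and IPO9 at 1.02 is the highest.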

How the data were processed

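The deposited table held 1 processed intensity per probe set and array, made by the authors with GCRMA per the submitters' processing notes; version and scale are not given in the sources used here. Values from 3.76 to 17455 were taken as linear. GCRMA compresses differences between weak signals. They were log2-transformed here with no pseudocount. Of 22277 probe sets, 62 were controls, 19064 had 1 symbol, 1043 several and 2108 none. Probe sets were kept if at least 3 of 6 arrays exceeded the median of all values, and each gene was read on its brightest single-symbol probe set.

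Differences were fitted over the whole table with limma 3.58.1 in R 4.3.3 (lmFit, eBayes), and p-values were adjusted by the Benjamini-Hochberg method. The intervals are 95% intervals from that fit. Python 3.11.15, scipy 1.17.1 and matplotlib 3.10.9 were used for the rest. On simulated arrays, 99 of 100 probe sets changed by 1 and 91 of 100 changed by 0.5 on the log2 scale were recovered. The number of arrays, 3 a group, limits precision.

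Members and lists were chosen with earlier results of these data known. Named by rule were FOLH1, the exchanged subunits, PSME1, PSME2, PSMF1, genes with opposed probe sets and, in each role and list, the 2 largest rises and falls past the threshold; other genes were named after their values were seen. A planned comparison of protein sequences was not run, and 1 planned motif is not reported here.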

Additional observations from a re-analysis of the deposited data

How the results depend on the processing

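No paired analysis was possible because the groups share no replicate numbers. PSMB8 kept its direction and call under each alternative, with log2 differences of 0.47 to 0.57. PSMB9 did so under each alternative that tested it (1.31 to 1.90), but it passed the main filter only through the PSMA arrays. Wherever that filter was used, the direction of PSMB9 was thus fixed in advance. With no filter, PSMB9 had limma adjusted p = 2.5e-05. A filter asking for all 6 arrays dropped PSMB9 and moved the immunoproteasome median to 0.37. PSMB10 (0.22) passed except against a minimum fold of 1.2. That test called 7 members (6 higher, 1 lower), 9 member probe sets and 1680 genes in all, with 4 assembly, 4 transcriptional control, 2 ubiquitin, 2 peptide loading and 2 interferon genes. With a variance that follows intensity and robust estimation, changed together, 14 members were higher and 14 lower. Averaged probe sets reversed PSMC2 and the ATPase median (0.042 for both). They turned PSMD11 (0.25) and PSME4 (0.16) from uncalled and negative to called higher, and added PSMB4 (0.11). The PSMD11 average takes in a probe set that passed the filter only through the PSMA arrays and so had to differ. Averaging also moved the medians of the alpha ring to -0.064, of the activators to -0.035 and of the inhibitor to 0.39. Leaving out 1 array gave 17 to 19 called members (43.6% to 48.7%, against 56.8% to 63.1% of all genes). Of these, 17 or 18 were among the 19, with PSMA5, PSMB6 or both lost each time and up to 2 others gained. The medians then ran from -0.14 to -0.067 for the ATPases and from -0.10 to -0.049 for the activators. PSMA5 and PSMB6 lay at the threshold. The cause of these shifts was not tested. Dim signal limits PSMB9 on the control arrays.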

Other observations

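One control array stood apart on the proteasome genes. Among the 3 control-labelled arrays, replicate 3 gave the highest value for 28 of the 39 members (71.8%), against 33.9% of all tested genes. The members lay a median of 0.050 on the log2 scale above the mean of the other 2 control arrays on it, while all tested genes lay at -0.017. On PSMA-labelled arrays, replicate 5 was the highest for 17 members (43.6%, against 29.8% of all genes). Without control replicate 3, limma called 19 members (48.7%, against 63.1% of all genes), and the calls differed by the loss of PSMA5 and the gain of PSMD4.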
